A study of Mus musculus with 11 samples.

Results

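The genes described here encode the carnitine shuttle, which carries long-chain fatty acids into mitochondria, and the enzymes that break them down there by beta-oxidation. They were taken from a fixed list of 10 genes, Cpt1a, Cpt1b, Slc25a20, Cpt2, Acadvl, Acadm, Hadha, Acaa2, Eci1 and Etfb, out of 52282 genes with a matched transcript. All 10 passed the filter on low counts, which kept 26960 genes. The RNA came from inguinal white fat, which lies under the skin, of C57BL6/J mice aged 16 weeks. In KO mice Raptor, the subunit that defines the mTORC1 kinase complex, was removed in adipocytes through floxed alleles and a Cre driven by adiponectin, and WT mice were littermates with floxed alleles. Every group ate a high-fat diet for 8 weeks, with rosiglitazone, an agonist of the nuclear receptor PPARG, at 30 mg per kg per day or without it. There were 3 libraries of KO with rosiglitazone, 2 of KO on diet alone, 3 of WT with rosiglitazone and 3 of WT on diet alone. The study asked how PPARG and mTORC1 interact in setting the transcriptome of this tissue.

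In all 6 WT libraries the sample title states the other treatment than the treatment characteristic does. The WT groups follow the characteristic, and every direction between WT treatments, or between KO and WT at 1 treatment, holds under that label. Grouped by the titles instead, rosiglitazone in WT would have 7 of the 10 genes lower, and KO against WT would have 0 lower with rosiglitazone and 7 lower on diet. The KO titles and characteristics do not conflict. The labels do not tell whether each library stands for its own animal, and p-values then reflect only how these samples vary, which may be technical variation. The tissue was sequenced whole, and Cre driven by adiponectin leaves Raptor intact in cells other than adipocytes.

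Fatty acids are activated to acyl-CoA outside the mitochondrial matrix, and CPT1 in the outer mitochondrial membrane moves the acyl group onto carnitine, the step that sets how fast long-chain fat is burned. Carnitine-acylcarnitine translocase carries the product across the inner membrane, CPT2 rebuilds the acyl-CoA, and a cycle of dehydrogenation, hydration, dehydrogenation and thiolysis then shortens it. White adipocytes mainly store fat and burn little of it, while agonists of PPARG are known to raise oxidative genes in them.

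Depth ran from 13035346 to 40925952 estimated reads per library. Rptor, the gene of Raptor, measured 88.3, 82.4 and 91.7 CPM in KO with rosiglitazone, against 119, 126 and 110.5 CPM in WT with rosiglitazone, and 56.5 and 69.6 CPM in KO on diet, against 92.0, 80.1 and 73.9 CPM in WT on diet. CPM are reads per 1000000 of the normalised library total, given here and below in the order of replicates 1, 2 and 3. Every KO library lay below every WT library at the same treatment, but neither contrast passed the threshold (edgeR quasi-likelihood test, log2 fold change -0.44 ± 0.15 SE with rosiglitazone, adjusted p = 0.0749, and -0.38 ± 0.17 on diet, adjusted p = 0.467). Reads cover the whole gene in all cells of the tissue, and the deleted exons were not analysed here. All 16 markers of mature adipocytes had reads in every library. Their summed level was 6254 to 7635 CPM in KO with rosiglitazone, 9852 and 2866 CPM in KO on diet, 35665 to 41943 CPM in WT with rosiglitazone, and 40235, 14928 and 12262 CPM in WT on diet. The 15 markers of skeletal muscle, a tissue that expresses many of the oxidation genes strongly, summed to 40069 CPM in KO with rosiglitazone replicate 2, to 10156 and 18906 CPM in WT with rosiglitazone replicates 2 and 3, and to 15271 CPM in WT on diet replicate 2. In the other 7 libraries they summed to between 168 and 1029 CPM, with Myh2 at 0 in KO with rosiglitazone replicate 3 and Tnnc2 at 0 in KO on diet replicate 2.

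The upstream sequences of 3 of the genes are shown because rosiglitazone acts through PPARG, a nuclear receptor, and these are the members whose window holds AGGTCA, the hexamer bound by nuclear receptors, on either strand. They are from RefSeq on GRCm38.p6, cover the 250 bases before the RefSeq gene start, which can differ from the start in the annotation used for counting, and read 5′ to 3′ on the strand of the gene. Capitals mark the hexamer, which reads TGACCT where it lies on the opposite strand. The window of Acadm lies at chr3:153944644-153944893 on the minus strand, that of Acadvl at chr11:70015429-70015678 on the minus strand and that of Cpt1a at chr19:3323051-3323300 on the plus strand. The Cpt1a window lies inside the gene as counted, which runs from 3322334 to 3385733, so it is upstream of the RefSeq start only.
Acadm: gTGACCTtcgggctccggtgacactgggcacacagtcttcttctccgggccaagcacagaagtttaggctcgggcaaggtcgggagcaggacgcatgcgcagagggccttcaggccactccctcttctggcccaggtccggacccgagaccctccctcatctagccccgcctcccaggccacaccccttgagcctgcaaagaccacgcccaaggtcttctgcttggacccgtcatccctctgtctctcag
Acadvl: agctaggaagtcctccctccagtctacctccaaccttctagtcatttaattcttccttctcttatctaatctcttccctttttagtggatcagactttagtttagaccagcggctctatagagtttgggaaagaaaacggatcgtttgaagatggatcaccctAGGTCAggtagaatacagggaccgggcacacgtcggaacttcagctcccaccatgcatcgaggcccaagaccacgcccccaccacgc
Cpt1a: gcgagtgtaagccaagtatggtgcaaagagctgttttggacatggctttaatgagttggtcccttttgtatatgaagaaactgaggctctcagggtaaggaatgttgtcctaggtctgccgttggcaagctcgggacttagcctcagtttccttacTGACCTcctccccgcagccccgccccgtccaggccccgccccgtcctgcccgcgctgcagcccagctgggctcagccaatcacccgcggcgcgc

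The hexamer began 249 bases before the RefSeq start of Acadm on the opposite strand and 87 bases before that of Acadvl on the gene's own strand. It began 94 bases before the RefSeq start of Cpt1a on the opposite strand, within the gene as counted. It was present in 3 of the 8 members with an entry in the RefSeq table and in 14% of 32851 windows of the same length, searched on both strands. The DR1 repeat of that hexamer, bound by PPARG with RXR and searched as 2 exact copies with 1 base between, was in 0 of the 8 and in 0.0335% of all windows. The longer form AAGGTCA, which overlaps AGGTCA, was in 1 of the 8, Acadm, and in 4.08% of all windows. The GC box GGGCGG was in 5 of the 8 and in 32.7% of all windows, and CCAAT was in 2 of the 8 and in 33.8%. A match describes letters in a window and is not a measured binding site.

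Of the 10 genes, 7 were higher in WT with rosiglitazone than in WT on diet and 0 were lower, and 7 were lower in KO with rosiglitazone than in WT with rosiglitazone and 0 were higher (edgeR quasi-likelihood test, Benjamini-Hochberg adjusted p under 0.05 over 26960 genes). Between KO with rosiglitazone and KO on diet, and between KO on diet and WT on diet, 0 of the 10 passed. The plot of the members by library shows WT with rosiglitazone above the other 3 groups for 8 of the genes, and Cpt1a and Cpt1b outside that pattern. In bulk tissue, fewer cells of a type and less RNA per cell cannot be told apart.

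**Figure D1:**
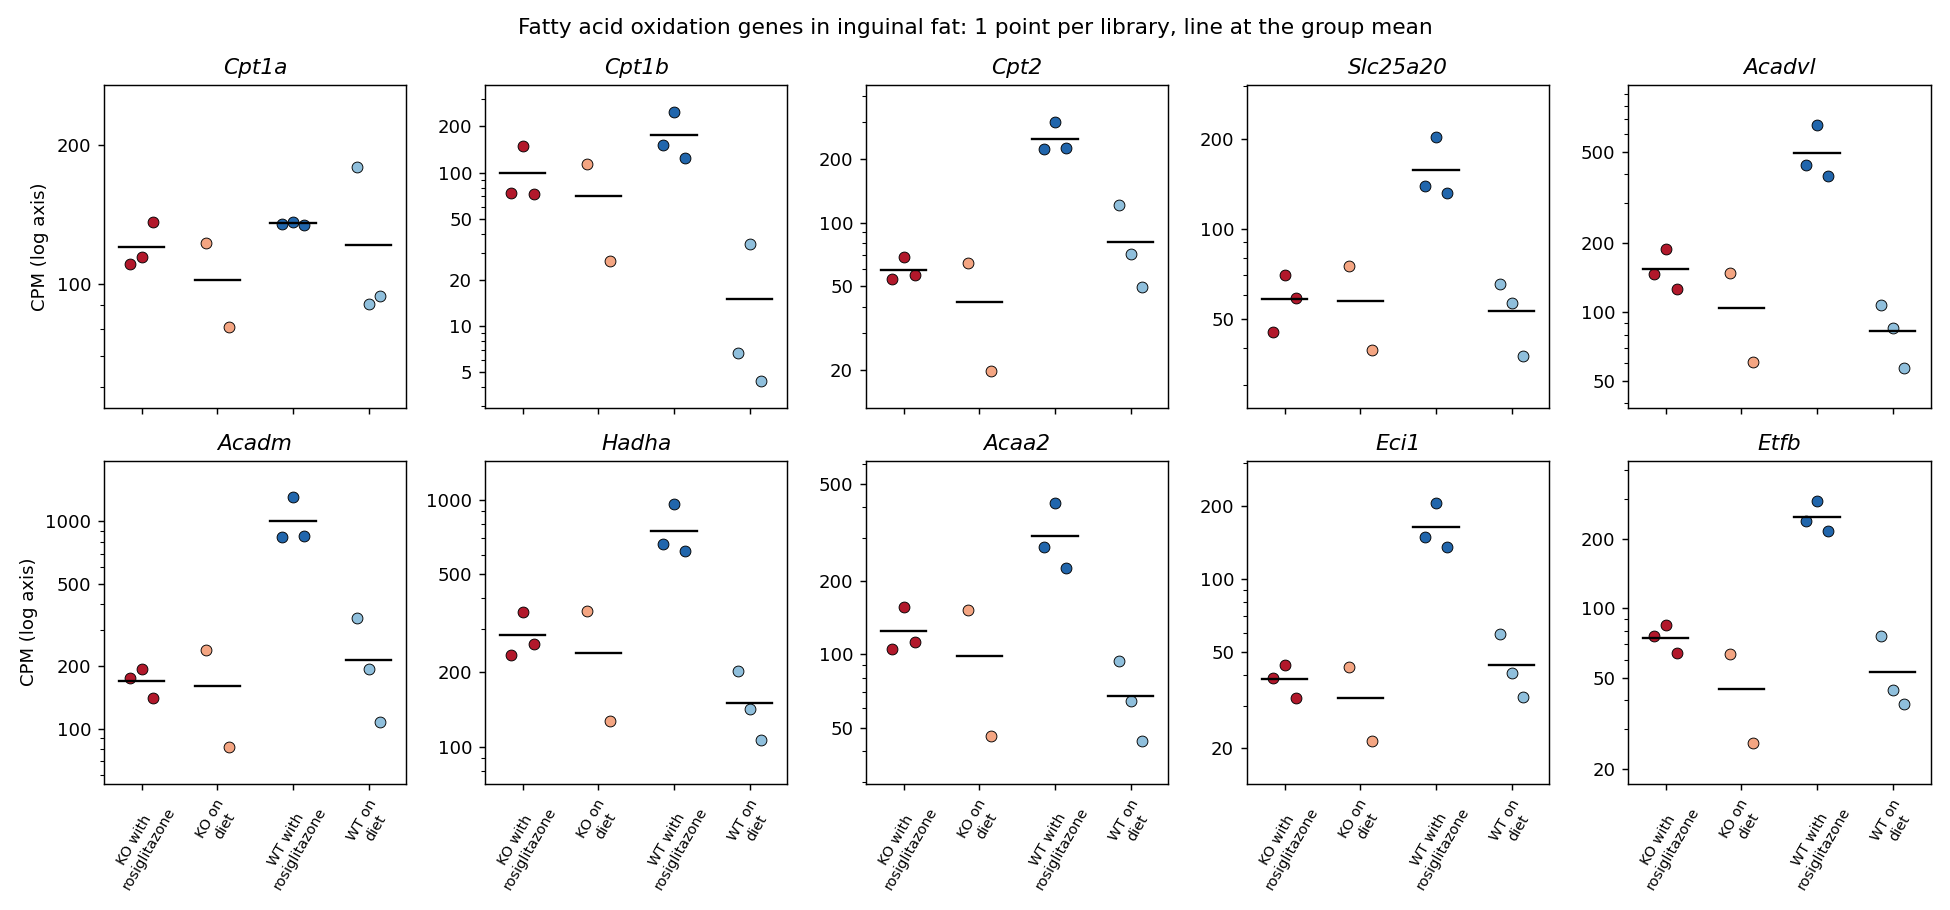
Level of each of the 10 genes in CPM (vertical axis, logarithmic, scaled separately per gene) in the 11 libraries, 1 point per library, with a line at the group mean. For Cpt2, Slc25a20, Acadvl, Acadm, Hadha, Acaa2, Eci1 and Etfb the 3 points of WT with rosiglitazone stand above all other points, whereas Cpt1a overlaps between groups. Cpt1b has its lowest group mean in WT on diet, whose points overlap with those of KO on diet.

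Cpt1a (ENSMUSG00000024900.5, GRCm38 chromosome 19, 3322334 to 3385733, plus strand) encodes the form of CPT1 found in liver and most other tissues. It measured 111, 114 and 136 CPM in KO with rosiglitazone, 123 and 81.0 CPM in KO on diet, 135, 136 and 135 CPM in WT with rosiglitazone, and 179, 90.5 and 94.2 CPM in WT on diet. The groups overlapped, the highest and the second lowest library both being WT on diet. Rosiglitazone gave a log2 fold change of 0.16 ± 0.27 in WT (adjusted p = 0.813) and of 0.24 ± 0.30 in KO (adjusted p = 0.920). KO against WT stood at -0.17 ± 0.27 with rosiglitazone (adjusted p = 0.709) and at -0.25 ± 0.30 on diet (adjusted p = 0.846). With mature adipocyte markers as a covariate, the contrast with rosiglitazone turned to 0.96 (edgeR adjusted p = 0.0263), the 1 member called higher in KO under that setting. Of all genes, 1304 were called higher there.

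Cpt1b (ENSMUSG00000078937.8, GRCm38 chromosome 15, 89416405 to 89425863, minus strand) encodes the form of muscle, heart and brown fat. It measured 74.2, 150.1 and 72.2 CPM in KO with rosiglitazone, 114 and 26.4 CPM in KO on diet, 151, 249 and 125 CPM in WT with rosiglitazone, and 6.68, 34.3 and 4.38 CPM in WT on diet. WT on diet replicate 2, rich in muscle markers, held the highest of the 3 low values, and WT with rosiglitazone did not overlap with WT on diet. The mean was 11.6-fold higher with rosiglitazone in WT, at a log2 fold change of 3.53 ± 0.86, which did not pass (adjusted p = 0.0720). Without WT on diet replicate 2 it was 4.98, and over the 11 fits that each leave out 1 library the adjusted p ran from 0.0586 to 0.229. KO on diet stood at 2.22 ± 0.87 against WT on diet (unadjusted p = 0.0305, adjusted p = 0.408). Leaving out KO on diet replicate 1 gave 0.80, and leaving out WT on diet replicate 2 gave 3.66. Reads of Gm44502, a gene that spans Cpt1b on the same strand, came to 1.18% of those of Cpt1b.

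Slc25a20 (ENSMUSG00000032602.6, GRCm38 chromosome 9, 108662088 to 108684641, plus strand) encodes the carnitine-acylcarnitine translocase. It measured 45.3, 70.0 and 58.7 CPM in KO with rosiglitazone, 74.8 and 39.3 CPM in KO on diet, 139, 202 and 131 CPM in WT with rosiglitazone, and 65.1, 56.5 and 37.5 CPM in WT on diet. The 3 libraries of WT with rosiglitazone were the highest of the 11, and the other groups overlapped. Rosiglitazone raised it 2.97-fold in WT (log2 fold change 1.57 ± 0.31, adjusted p = 0.0363). With rosiglitazone, KO tissue had 0.368 times the WT level (-1.44 ± 0.31, adjusted p = 0.0142). Rosiglitazone in KO gave 0.02 ± 0.34 (adjusted p = 0.997), the smallest of the 10 values in that contrast.

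Cpt2 (ENSMUSG00000028607.16, GRCm38 chromosome 4, 107903981 to 107923610, minus strand), which returns the acyl group from carnitine to CoA in the matrix, measured 53.9, 68.7 and 56.3 CPM in KO with rosiglitazone and 64.2 and 19.7 CPM in KO on diet. It measured 225, 301 and 226 CPM in WT with rosiglitazone and 121, 71.4 and 49.7 CPM in WT on diet. KO with rosiglitazone lay below WT with rosiglitazone without overlap, by a log2 fold change of -2.07 ± 0.43 (adjusted p = 0.0131). In WT, rosiglitazone gave 1.64 ± 0.43, also without overlap, and missed the threshold (adjusted p = 0.0825). That value passed without WT on diet replicate 1, at 2.05 (adjusted p = 0.0239). It also passed, at 1.64 each time, without KO on diet replicate 1 (adjusted p = 0.0216) or replicate 2 (adjusted p = 0.0211).

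Acadvl (ENSMUSG00000018574.14, GRCm38 chromosome 11, 70010183 to 70015411, minus strand), the very-long-chain acyl-CoA dehydrogenase of the inner membrane, measured 147, 188 and 127 CPM in KO with rosiglitazone and 149 and 60.5 CPM in KO on diet. It measured 439.9, 656 and 393 CPM in WT with rosiglitazone and 107, 85.1 and 57.2 CPM in WT on diet. All KO libraries except KO on diet replicate 2 stood between the 2 WT groups. Rosiglitazone raised it 5.97-fold in WT (2.58 ± 0.39, adjusted p = 0.0186), the smallest adjusted p of the 10 genes in that contrast. Over the 11 fits that leave out 1 library each, the adjusted p ran from 0.00517 to 0.0936. With rosiglitazone it was lower in KO than in WT (-1.69 ± 0.37, adjusted p = 0.0164). Acadvl overlaps Dvl2 on the opposite strand by 2119 bases, and the reads of Dvl2 came to 8.11% of those of Acadvl. The labels name no strand, so reads of that stretch cannot be told apart.

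Acadm (ENSMUSG00000062908.12, GRCm38 chromosome 3, 153922357 to 153944632, minus strand), the medium-chain acyl-CoA dehydrogenase, measured 175, 193 and 139.8 CPM in KO with rosiglitazone and 241 and 81.1 CPM in KO on diet. It measured 841, 1312 and 852 CPM in WT with rosiglitazone and 343, 194 and 108 CPM in WT on diet. WT with rosiglitazone stood above every other library, and both KO groups overlapped with WT on diet. The drop in KO against WT with rosiglitazone was the largest of the 10, to 0.169 times the WT level (log2 fold change -2.56 ± 0.49, adjusted p = 0.00964). Rosiglitazone raised it 4.66-fold in WT (2.22 ± 0.49, adjusted p = 0.0494), just inside the threshold, and not past it under RLE scaling (median-ratio size factors).

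Hadha (ENSMUSG00000025745.12, GRCm38 chromosome 5, 30118304 to 30155162, minus strand) encodes the alpha subunit of the trifunctional protein, which hydrates and dehydrogenates long-chain intermediates. It measured 235, 351 and 262 CPM in KO with rosiglitazone, 354 and 127 CPM in KO on diet, 664, 960.4 and 619.7 CPM in WT with rosiglitazone, and 203, 143 and 106 CPM in WT on diet. The 3 KO libraries with rosiglitazone lay between WT with rosiglitazone and WT on diet, and KO on diet overlapped with WT on diet. Rosiglitazone raised it 4.96-fold in WT (2.31 ± 0.41, adjusted p = 0.0287). KO with rosiglitazone stood at -1.40 ± 0.40 against WT with rosiglitazone (adjusted p = 0.0404), a call lost in 7 of the 11 fits that leave out 1 library.

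Acaa2 (ENSMUSG00000036880.10, GRCm38 chromosome 18, 74779197 to 74806208, plus strand) encodes the thiolase that cuts off acetyl-CoA at the end of each cycle. It measured 105, 157 and 112 CPM in KO with rosiglitazone, 151 and 46.1 CPM in KO on diet, 274, 414 and 226 CPM in WT with rosiglitazone, and 93.9, 64.4 and 44.1 CPM in WT on diet. KO with rosiglitazone again stood between both WT groups without overlap. Rosiglitazone raised it 4.52-fold in WT (2.18 ± 0.45, adjusted p = 0.0434). With rosiglitazone, KO against WT gave -1.29 ± 0.44, which did not pass by edgeR (adjusted p = 0.0757) and passed by DESeq2 and limma-voom.

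Eci1 (ENSMUSG00000024132.6, GRCm38 chromosome 17, 24426641 to 24439348, plus strand) encodes an isomerase that moves the double bond of unsaturated fatty acids so that they can enter the cycle. It measured 38.8, 44.3 and 32.4 CPM in KO with rosiglitazone, 43.2 and 21.4 CPM in KO on diet, 149, 205 and 135 CPM in WT with rosiglitazone, and 59.1, 40.9 and 32.4 CPM in WT on diet. KO with rosiglitazone overlapped with WT on diet and lay far below WT with rosiglitazone. That drop had the smallest adjusted p of the 10 genes (-2.09 ± 0.32, adjusted p = 0.00356). Rosiglitazone raised Eci1 3.70-fold in WT (1.89 ± 0.31, adjusted p = 0.0236).

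Etfb (ENSMUSG00000004610.4, GRCm38 chromosome 7, 43444083 to 43457800, plus strand) encodes the beta subunit of the electron transfer flavoprotein, which takes electrons from the acyl-CoA dehydrogenases towards the respiratory chain. It measured 75.7, 84.6 and 63.8 CPM in KO with rosiglitazone, 63.1 and 26.0 CPM in KO on diet, 240.1, 292 and 217 CPM in WT with rosiglitazone, and 75.7, 44.3 and 38.3 CPM in WT on diet. Rosiglitazone raised it 4.73-fold in WT (2.24 ± 0.36, adjusted p = 0.0211), and KO with rosiglitazone was lower than WT with rosiglitazone (-1.74 ± 0.35, adjusted p = 0.0111). Etfb was the 1 member whose KO libraries did not overlap between treatments, by a narrow gap, where 10.5% of all genes were higher without overlap, and its value there was the largest of the 10 (0.75 ± 0.39, adjusted p = 0.673). Genes on the same strand within Etfb held few reads, up to 1.01% of its own, for Gm45233.

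**Figure D2:**
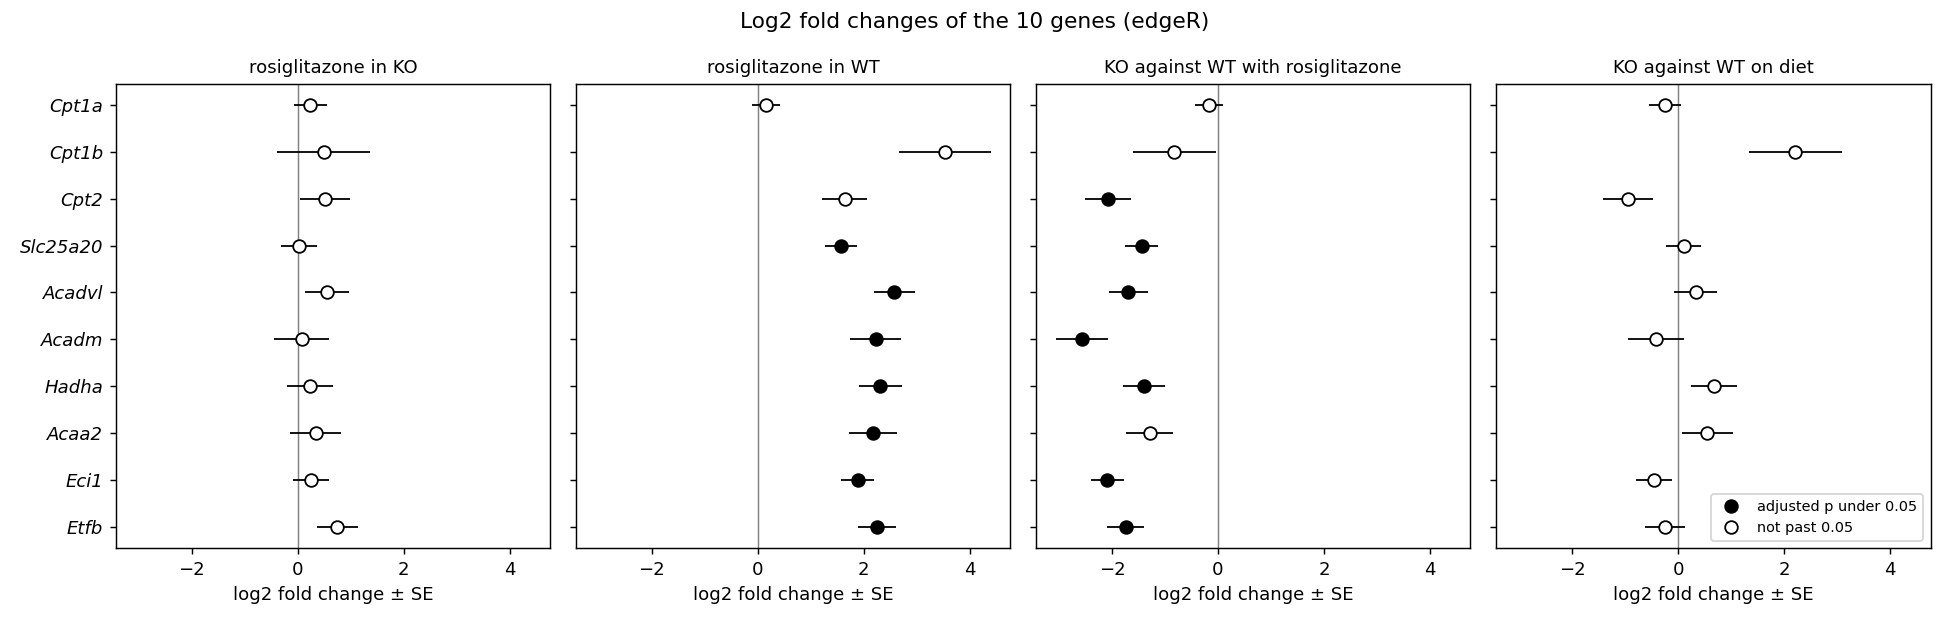
Log2 fold change of each gene with its standard error (horizontal axis) in 4 contrasts, with filled points where the edgeR adjusted p is under 0.05. With rosiglitazone in WT 7 points are filled, all to the right of 0, in KO against WT with rosiglitazone 7 are filled, all to the left, and in the other 2 panels 0 are filled.

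Rosiglitazone in WT thus raised 7 of the 10 genes, where 1.55% of all genes tested were called higher and 0.593% lower. The median log2 fold change of the 10 was 2.20, against -0.05 for all genes tested. At an unadjusted p under 0.05, 9 members were higher, where 9.93% of all genes were, and 9 did not overlap between the groups, where 13.4% of all genes did not in that direction. DESeq2 called 9 members higher, with 1253 of all 26960 genes, and limma-voom 10, with 4558 of all genes. The count of members rested on single libraries, as did that of all genes, 578 of which were called in the full fit. It was 0 without WT with rosiglitazone replicate 1 or 2 or without WT on diet replicate 2 or 3. Without WT with rosiglitazone replicate 3 it was 1. In these fits 39, 18, 27, 30 and 67 of all genes were called, in that order. The count of members was 3 without replicate 1 or 3 of KO with rosiglitazone and 4 without its replicate 2. These libraries enter through the spread shared by all 11 libraries. The count was 8 without KO on diet replicate 1, KO on diet replicate 2 or WT on diet replicate 1. In these 11 fits the median of the 10 log2 fold changes stayed between 1.92 and 2.54.

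Of the cell markers, 0 of the 16 for adipocytes passed in this contrast by edgeR, with a median of 0.87. At an unadjusted p under 0.05, 6 of them were higher and 1 lower, where 2678 and 2022 of all 26960 genes were. For muscle 0 of the 15 passed, and 0 did without adjustment, with a median of 0.79. Single libraries held much of either signal. Macrophage markers were called lower in 3 of 15 (median -0.45), with sums of 758 to 931 CPM in WT with rosiglitazone against 1030 to 1444 CPM in WT on diet. Brown and beige markers were called higher in 2 of 12 (median 2.48). Of 10 B cell and 10 T cell markers 0 passed by edgeR (1 and 0 at an unadjusted p under 0.05), with medians of -1.63 and -1.35. The part of these cells in the result was not tested. With skeletal muscle markers as a covariate 2 members passed, Acadvl (2.54) and Etfb (2.23), and the median of the 10 was 2.16. In that fit 110 of all genes were called higher. Without the 4 libraries rich in muscle markers 1 library of WT with rosiglitazone remained, assumed to vary like the other groups, and 0 members and 0 of all genes passed by edgeR (958 of all genes at an unadjusted p under 0.05), with a median of 1.91 and 9 of the 10 values above 0. With mature adipocyte markers as a covariate 8 members were called higher, with a median of 1.48 for the 10, where 810 of all genes were called higher. WT on diet replicate 1 had an adipocyte marker sum of 40235 CPM, within the range of WT with rosiglitazone, and a sum over the 10 genes of 1253 CPM, against 3258, 4728 and 3060 CPM in WT with rosiglitazone. On the log2(TPM + 1) scale 0 members passed by limma, with values from 0.04 to 3.74 and 48 of all genes called.

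With rosiglitazone, KO tissue was lower than WT tissue in 7 of the 10 genes, where 9.5% of all genes tested were called lower and 5.47% higher. The median of the 10 was -1.57, against 0.05 for all genes tested. In 8 of the 10, all but Cpt1a and Cpt1b, the KO libraries lay below the WT libraries without overlap, where 24.7% of all genes did. DESeq2 and limma-voom each called 8 lower, with 3556 and 5172 of all genes. Without KO with rosiglitazone replicate 1 the count was 3, without its replicate 3 it was 1, and without WT with rosiglitazone replicate 2 it was 3. Of all genes, 2561 were called lower in the full fit and 969, 873 and 969 in these fits. In the other 8 fits that leave out 1 library the count of members was 6 to 8. Eci1 passed in all 11, with adjusted p from 0.0011 to 0.0253.

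Mature adipocyte markers moved in the same direction as the oxidation genes between these groups: 13 of 16 were called lower in KO with rosiglitazone, with a median log2 fold change of -2.57. Macrophage markers moved the other way, with 11 of 15 called higher (median 2.13) and sums of 2883 to 3585 CPM in KO with rosiglitazone against 758 to 931 CPM in WT with rosiglitazone. The make-up of the libraries moved with these groups as well. Protein-coding genes held 13.9%, 22.9% and 28.7% of TPM in KO with rosiglitazone against 49%, 42.7% and 36.4% in WT with rosiglitazone, and 59% to 71.4% of reads against 77.5% to 78%, without overlap. A fit on protein-coding genes alone, chosen after seeing the data, called 7 members lower, with 2187 of the 16916 genes in it. The median of the members was -1.43, against 0.10 for all genes in that fit. With the mature adipocyte sum as a covariate 0 of the 10 oxidation genes were called lower, where 456 of all genes were. The median of the 10 oxidation genes was -0.14, with 4 of the 10 values above 0 and the lowest at -0.81. The adipocyte sums of KO and WT libraries do not overlap, from 2866 to 9852 CPM in KO and from 12262 to 41943 CPM in WT, so the genotype and the adipocyte signal cannot be told apart by that fit. Without the 4 libraries rich in muscle markers 0 members and 0 of all genes passed by edgeR (2538 of all genes at an unadjusted p under 0.05), at a median of -1.48 for the 10. Per 1000 CPM of adipocyte markers, the 10 genes summed to 142 to 186 CPM in KO with rosiglitazone, 139.9 and 184 CPM in KO on diet, 80.7 to 113 CPM in WT with rosiglitazone and 31.1 to 55.2 CPM in WT on diet. By that ratio the order of KO and WT is turned round, and the libraries of KO do not overlap with those of WT at either treatment. The markers that it divides by changed between the groups themselves, and unevenly. Cfd averaged 6.53 CPM in KO with rosiglitazone and 470 CPM in WT with rosiglitazone, and Fabp4 946 and 3850 CPM. The ratio is therefore not a level per adipocyte. It was computed after the values were seen and is given with no test.

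**Figure D3:**
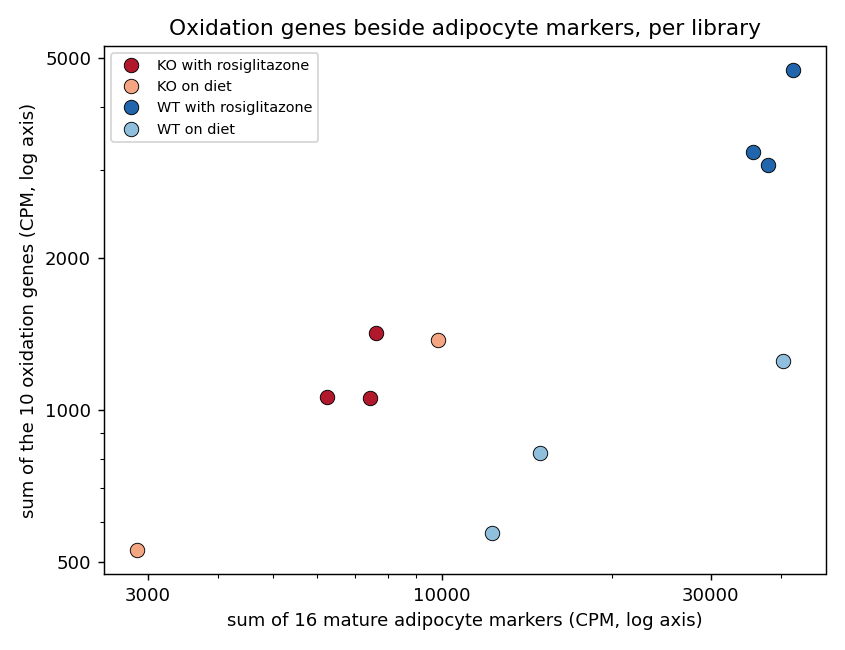
Sum of the 10 oxidation genes (vertical axis, CPM, logarithmic) against the sum of 16 mature adipocyte markers (horizontal axis, CPM, logarithmic), 1 point per library. KO libraries lie at low adipocyte sums of 2866 to 9852 CPM, WT with rosiglitazone lies at the upper right, and WT on diet replicate 1 shares its adipocyte sum while its oxidation sum is 1253 CPM.

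In KO tissue rosiglitazone changed 0 of the 10 genes by edgeR, 0 at an unadjusted p under 0.05, and 0 by DESeq2 and limma-voom. edgeR called 0.0148% of all genes here, and without adjustment 4.09% were higher and 4.27% lower. The log2 fold changes ran from 0.02 (Slc25a20) to 0.75 (Etfb) with a median of 0.30. With the adipocyte marker covariate 1 member, Etfb, was called higher (0.62), where 753 of all genes were. All 10 were below 0 on the TPM scales. With a pseudocount of 1 their median was -0.42 there, while the median of all genes was -0.60. The 10 genes summed to 1061, 1421 and 1060 CPM in KO with rosiglitazone, against 1378 and 528 CPM in KO on diet, where replicate 2 was lower than replicate 1 in every member. Without KO on diet replicate 1 the values ran up to 1.91, for Cpt1b, and without replicate 2 down to -0.51, for Acadm. The standard errors in this contrast ran from 0.30 for Cpt1a to 0.88 for Cpt1b.

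On diet alone, 0 of the 10 genes passed between KO and WT by edgeR, DESeq2 or limma-voom, where edgeR called 0.137% of all genes. At an unadjusted p under 0.05 Cpt1b was higher in KO and 0 were lower, where 4.57% of all genes were higher and 5.92% lower. The other values ran from -0.94 ± 0.48 for Cpt2 to 0.67 ± 0.43 for Hadha, and the median of the 10 was -0.07. The adipocyte markers summed to 9852 and 2866 CPM in KO on diet, below all 3 WT libraries on diet. With that sum as a covariate 4 members were called higher in KO, Acadvl (1.35), Hadha (1.82), Acaa2 (1.84) and Etfb (0.87). In that fit 1937 of all genes were called higher, against 7 without the covariate. As the sums do not overlap, the genotype and the adipocyte signal cannot be told apart by it here either. Muscle markers summed to 346 and 183 CPM in KO on diet against 656, 15271 and 1029 CPM in WT on diet.

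The difference between the responses to rosiglitazone in KO and in WT, tested as an interaction, passed for 0 of the 10 genes by edgeR and limma-voom and for 2 by DESeq2, Acadvl (-2.03) and Hadha (-2.08). edgeR called 0.104% of all genes in this test, and DESeq2 called 531 of all 26960. At an unadjusted p under 0.05, 8 members were lower, where 5.64% of all genes were, and the median of the 10 was -1.74 against 0.00 for all genes tested. Acadvl stood at -2.02 ± 0.54 (adjusted p = 0.239), Hadha at -2.08 ± 0.58 (adjusted p = 0.259), Acadm at -2.15 ± 0.70 (adjusted p = 0.324) and Cpt1b at -3.04 ± 1.17 (adjusted p = 0.413). Cpt2 (-1.13 ± 0.62) and Cpt1a (0.08 ± 0.41) were the members over an unadjusted p of 0.05. Without KO on diet replicate 2, Acadvl (-2.54) and Hadha (-2.64) passed, with 192 of all genes called lower. With the adipocyte marker covariate 6 members passed, all lower, with 415 of all genes called lower, against 5 in the main fit. That the genes passed in WT and not in KO therefore does not show that the responses differ.

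Levels can be set side by side across genes as TPM, which divides by transcript length. Protein-coding genes held 13.9% to 49% of the TPM of a library, so TPM levels are compared here between genes of the same libraries. In WT with rosiglitazone the median was highest for Acadm (794 TPM), then Etfb (498), Hadha (426), Acadvl (293), Acaa2 (235), Eci1 (185), Cpt2 (136), Slc25a20 (98.8), Cpt1b (89.3) and Cpt1a (29.7 TPM). Within each of these libraries the order was the same, except in replicate 2, where Cpt1b (122 TPM) stood above Slc25a20 (110 TPM). Across libraries, Acadm stood above Etfb and Cpt1b above Cpt1a without overlap, while the ranges of all other neighbours overlapped. In KO with rosiglitazone the order of medians was Hadha (142 TPM), Etfb (109), Acadm (107), Acaa2 (74.8), Acadvl (70.6), Cpt1b (38.7), Eci1 (31.1), Slc25a20 (28.8), Cpt2 (22.8) and Cpt1a (19.1 TPM). Across libraries, the range of each neighbour in that order overlapped with that of the next. Within every library of that group, Hadha stood above Etfb, Acadm above Acaa2, Acadvl above Cpt1b and Cpt1b above Eci1. The other neighbours did not keep their order in every library.

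The top of that order differed between genotypes in every library. Hadha had the highest TPM of the 10 genes in all 5 KO libraries, and Acadm in all 6 WT libraries. The ratio of Acadm to Hadha in TPM was 0.709, 0.792 and 0.698 in KO with rosiglitazone, 0.852 and 0.759 in KO on diet, 1.86, 1.95 and 1.99 in WT with rosiglitazone, and 2.67, 1.87 and 1.35 in WT on diet. The ratio of their reads also kept KO and WT apart, at 0.534 to 0.744 in KO and 1.01 to 1.69 in WT. This pattern was chosen after the values were seen and has no test.

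The ratio of Cpt1b to Cpt1a was lowest in WT on diet in TPM, by a narrow gap, and overlapped with KO on diet in reads. In TPM it was 2.03, 2.71 and 1.28 in KO with rosiglitazone, 1.85 and 0.952 in KO on diet, 2.33, 4.11 and 2.01 in WT with rosiglitazone, and 0.0606, 0.806 and 0.0902 in WT on diet. By TPM summed over all transcripts, Cpt1b stood above Cpt1a in 7 of the 8 libraries outside WT on diet and below it in all 3 within it. That sum includes transcripts not annotated as protein-coding. The retained-intron Cpt1b-202 held 40.7% of it in KO with rosiglitazone replicate 1 and 23.7% in replicate 3. Protein-coding transcripts alone were not compared. In reads the ratio was 0.531 to 1.31 in KO with rosiglitazone, 0.930 and 0.326 in KO on diet, 0.927 to 1.82 in WT with rosiglitazone, and 0.0373, 0.379 and 0.0465 in WT on diet. Muscle markers were at 656 and 1029 CPM in the 2 WT libraries on diet with ratios under 0.1, and at 168, 346 and 237 CPM in KO with rosiglitazone replicate 1, KO on diet replicate 1 and WT with rosiglitazone replicate 1, whose ratios were 2.03, 1.85 and 2.33. Among 12 markers of brown and beige fat, which also uses the muscle form, 2 were called higher in WT with rosiglitazone than in WT on diet. The 12 summed to 228 to 531 CPM in KO with rosiglitazone, 719 and 185 CPM in KO on diet, 410 to 740 CPM in WT with rosiglitazone and 91 to 207 CPM in WT on diet. Ucp1, the defining gene of brown fat, was at 0 in WT on diet replicates 1 and 3 and Elovl3 in replicate 2, and the part of these cells in the ratio was not tested.

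**Figure D4:**
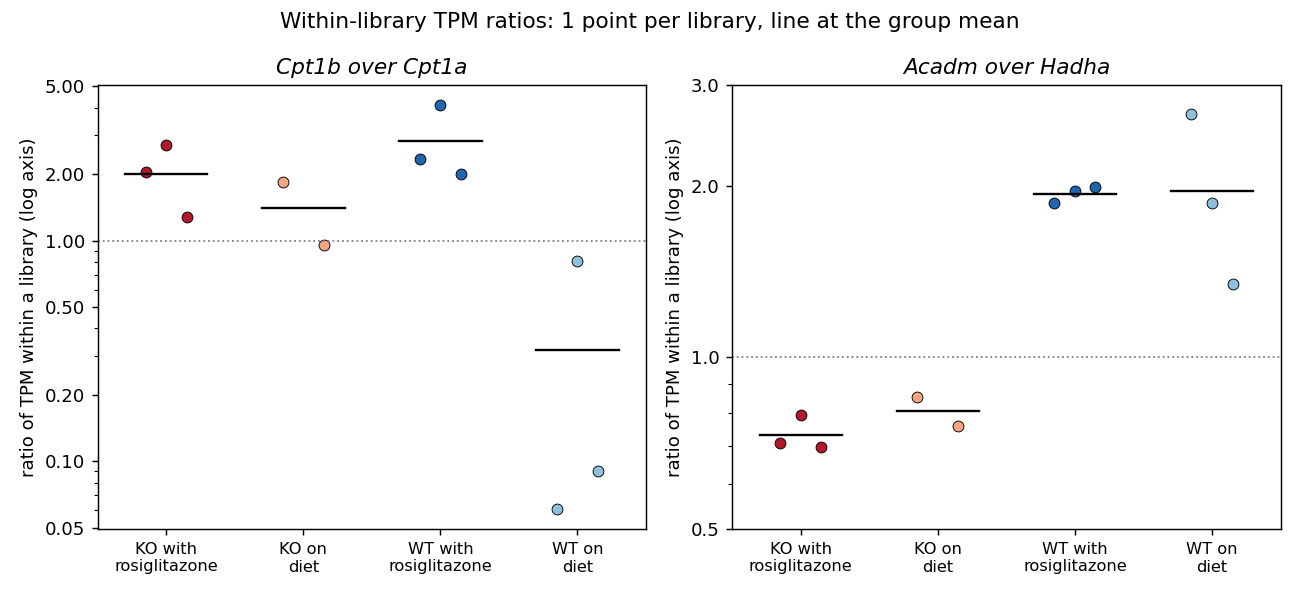
Ratio of Cpt1b to Cpt1a and of Acadm to Hadha within a library (vertical axes, ratio of TPM, logarithmic), 1 point per library with a line at the group mean and a dotted line at equal TPM. Cpt1b over Cpt1a is 0.0606 to 0.806 in WT on diet and reaches 4.11 in WT with rosiglitazone, and Acadm over Hadha is below the dotted line in all 5 KO libraries and above it in all 6 WT libraries.

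Transcripts of the members differed in how cleanly they stood for the protein. Cpt1a, Acaa2 and Eci1 have 1 annotated transcript each. Of the TPM of Acadm over all libraries, 51% fell on the protein-coding transcript Acadm-201 and 32.8% on the retained-intron transcript Acadm-210. Hadha had 12% on the protein-coding Hadha-205, with 44.8% and 32.8% on Hadha-201 and Hadha-204, annotated as processed transcripts. Cpt1b had 61.2% on the protein-coding Cpt1b-201 and 23.6% on Cpt1b-204, annotated for nonsense-mediated decay, besides 12.5% on the retained-intron Cpt1b-202. Cpt2 had 80.6% on the protein-coding Cpt2-201 and 17.2% on the retained-intron Cpt2-206, and Acadvl had 77.6% on the protein-coding Acadvl-202 and 14.6% on the retained-intron Acadvl-207. Slc25a20 had 86.5% on the protein-coding Slc25a20-201, and Etfb had 50.9% and 31.9% on Etfb-205 and Etfb-201, both protein-coding. The gene sums above hold all of these, and how the quantifier divides reads among overlapping transcripts sets these shares.

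The rest of the pathway, 21 genes in a fixed list of other oxidation enzymes, carriers and a kinase, was counted in the same fits. Rosiglitazone in WT raised 8 of the 21 and lowered 0, where 1.55% of all genes were called higher and 0.593% lower, with a median log2 fold change of 1.48. Hadhb, the partner of Hadha in the trifunctional protein, averaged 1285 ± 377 CPM in WT with rosiglitazone and 259 ± 101 CPM in WT on diet (SD, n = 3 each), a log2 fold change of 2.31 ± 0.47 (adjusted p = 0.0407). Etfa, the partner of Etfb, averaged 239 ± 43.3 CPM in WT with rosiglitazone and 65.2 ± 24.0 CPM in WT on diet (1.88 ± 0.37, adjusted p = 0.0377). Etfdh (1.58), which passes the electrons to ubiquinone, the enoyl-CoA hydratase Echs1 (1.13), Mlycd (1.49), which removes the CPT1 inhibitor malonyl-CoA, Acad10 (0.91) and the short-chain dehydrogenase Acads (2.00) also rose. Not past the threshold were Acadl, the long-chain dehydrogenase (1.97 ± 0.52, adjusted p = 0.0876), Acsl1, which activates fatty acids (1.48 ± 0.45, adjusted p = 0.128), and Pdk4, the kinase that shuts off pyruvate dehydrogenase (2.65 ± 0.73, adjusted p = 0.09998). Of the 7 called genes named, Acad10 lost its call in 5 of the 11 fits that leave out 1 library, and the other 6 did in 8 of the 11.

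In KO with rosiglitazone 17 of the 21 were lower than in WT with rosiglitazone and 0 were higher, where 9.5% of all genes were called lower and 5.47% higher, with a median of -1.81. Acad11 averaged 55.3 ± 7.92 CPM in KO with rosiglitazone and 522 ± 90.1 CPM in WT under the drug (SD, n = 3 each), a log2 fold change of -3.24 ± 0.43 (adjusted p = 0.00197). Acsl1 averaged 486 ± 45.2 CPM in KO with rosiglitazone against 3057 ± 279 CPM in WT at the same treatment (-2.65 ± 0.47, adjusted p = 0.00668). Acads (-2.32), Hsd17b10 (-1.98), Echs1 (-1.43), Acad10 (-1.14), Hadhb (-1.81), Acadl (-2.08) and Pdk4 (-2.73) fell as well. With the adipocyte marker covariate Hadhb (0.15) and Acadl (0.25) turned to the other side of 0. Leaving out 1 library at a time kept the calls of Acad10, Acad11, Acads, Acsl1, Echs1 and Hsd17b10 in all 11 fits, while Hadhb, Acadl and Pdk4 lost theirs in 6. In KO with rosiglitazone against KO on diet, in KO against WT on diet and in the interaction 0 of the 21 passed by edgeR. At an unadjusted p under 0.05, 0 passed in the first, 3 were lower in the second, where 5.92% of all genes were, and 15 were lower in the third, where 5.64% of all genes were.

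Of 12 regulators, Esrra, a nuclear receptor of mitochondrial genes, was the 1 that passed for rosiglitazone in WT (47.5 ± 4.03 CPM in WT with rosiglitazone and 21.7 ± 0.388 CPM in WT on diet, SD, n = 3 each). Its log2 fold change was 1.13 ± 0.15 (edgeR adjusted p = 0.0142). Of all genes, 1.55% were called higher in this contrast and 0.593% lower. At an unadjusted p under 0.05, 6 of the 12 were higher and 0 lower, where 9.93% of all genes were higher. Ppara, the main receptor behind fatty acid oxidation in liver, stood at 2.11 ± 0.50 (adjusted p = 0.0609), the coactivator Ppargc1a at 1.44 ± 0.47 (adjusted p = 0.154) and Pparg itself, the target of the drug, at 0.45 ± 0.45 (adjusted p = 0.646). KO with rosiglitazone was lower than WT with rosiglitazone in 6 of the 12, where 9.5% of all genes were called lower. These were Nrip1 (-1.60), a corepressor of oxidative genes, Acaca (-2.23) and Acacb (-1.74), which make malonyl-CoA, the PPARG partner Rxra (-1.52), Ppara (-1.79) and Pparg (-1.67). Esrra (-0.15 ± 0.15, adjusted p = 0.531) and Ppargc1a (-0.65 ± 0.46, adjusted p = 0.355) did not pass. Of 5 genes of ketone body metabolism, 3 were called lower in KO than in WT with rosiglitazone and 0 higher. Of all genes, 9.5% were called lower and 5.47% higher. The 3 included Acat1 (-1.93) and Oxct1 (-1.60), which serves the use of ketone bodies as fuel. At an unadjusted p under 0.05, 1 of the 5 was higher, where 3674 of all 26960 genes were. With the adipocyte marker covariate none of the 6 regulators, Acat1 or Oxct1 passed (edgeR adjusted p from 0.134 for Nrip1 to 0.876 for Ppara). Pparg stood at 0.48, Oxct1 at 0.44 and Rxra at -0.09. Over the fits that leave out 1 library, Nrip1 kept its call in all 11, Ppara, Pparg and Oxct1 lost theirs in 6, and Esrra lost its call for rosiglitazone in WT in 4.

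Over the 11 libraries, the genes outside the list whose log2 CPM followed the mean standardised level of the 10 most closely were Vwa8 (Pearson r = 0.995), Hadhb (0.994), Mlycd (0.992), Bckdk (0.992), Atp5o (0.991) and Ndufb6 (0.991). The points share tissue content and group, so these values describe likeness only. Among the members themselves r was 0.984 for Etfb and Acadvl, 0.978 for Acaa2, 0.975 for Hadha and Slc25a20, 0.963 for Acadm, 0.953 for Eci1 and 0.931 for Cpt2. Each member is part of that mean, which raises its own r, so these values are not comparable with those of the outside genes. Both forms of CPT1 followed least, Cpt1b at 0.713 and Cpt1a at 0.665.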

How the data were processed

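Trizol served for the RNA and a Nextera XT kit for the libraries, per the labels' protocols. Salmon, edgeR, mm10 and GRCm38 are named in the submitters' processing notes. Versions and annotation release: not given in the sources used here. Per the file headers, the authors deposited for every library a table of 132288 transcripts with length, effective length, TPM and estimated count. Identifiers of 131892 transcripts were matched, without version, to GENCODE M21, and unmatched ones held 0.0985% to 0.144% of reads. The deposited estimated counts were added up by gene, then rounded. CPM and all tests used edgeR 4.0.16 with TMM scaling, the default filter and a quasi-likelihood fit with a mean per group over all 11 libraries, with Benjamini-Hochberg adjustment over 26960 genes and a threshold of 0.05. Log2 fold changes carry standard errors. Salmon's model divides reads among transcripts and close paralogs.

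WT libraries were grouped by the treatment characteristic, against their titles. No replicates held identical values, with a chi-square per degree of freedom of 27.3 to 145 between them.

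The members and lists were chosen with earlier results of these data known. Named were all 10 members, up to 6 called genes per list and contrast, 9 fixed oxidation genes and regulators, Rptor, the 6 genes most alike and each member's transcripts with at least 10% of its TPM. Genes outside that rule are said to be so, and 1 gene within it is not reported here.

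Alternatives were RLE and upper-quartile scaling, DESeq2 1.42.0, limma 3.58.1 (voom), other filters, length offsets, log2(TPM + 1) and log2(TPM + 0.1), only the groups compared, a replicate block, WT grouped by titles, muscle and adipocyte marker covariates, a fit without the 4 libraries whose muscle markers took more than 0.5% of reads, each library left out, and, chosen after seeing the data, protein-coding genes only. The fit was tested on simulated data.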

Additional observations from a re-analysis of the deposited data

How the results depend on the processing

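Over the genes named, alternatives kept direction and side of the threshold in 1765 values, lost a call with the direction kept in 312, gained one in 58 and turned the sign in 123. The cause of these changes was not tested. The number of members called for rosiglitazone in WT was 0 on either TPM scale, 2 with the muscle marker covariate and 0 without the muscle-rich libraries, and for KO against WT with rosiglitazone it was also 0 without those libraries. The interaction had 2 by DESeq2. With the mature adipocyte marker covariate the number was 1 for rosiglitazone in KO, where 1562 of all genes were called. In that fit it was 1 (higher) for KO against WT with rosiglitazone, 4 for KO against WT on diet and 6 for the interaction. Of all genes, 1760, 3136 and 893 were called in these contrasts. With WT grouped by titles, 7 members (lower) were called for rosiglitazone in WT and 0 for KO against WT with rosiglitazone. There were 7 for KO against WT on diet and 2 for the interaction. Leaving out 1 library at a time gave 0 to 8 for rosiglitazone in WT, 1 to 8 for KO against WT with rosiglitazone and 0 to 2 for the interaction, and 0 for the other contrasts. Under the other alternatives these counts stayed within 1.5 times those reported. Upper-quartile scaling moved the median log2 fold change of all genes to -0.111 for rosiglitazone in WT and to 0.125 for KO against WT with rosiglitazone. On log2(TPM + 1) these medians were -0.133 and -0.301, and on log2(TPM + 0.1) they were -0.204 and -0.489. With WT grouped by titles, the sign turned for rosiglitazone in WT in Cpt1a -0.16, Cpt1b -3.53, Cpt2 -1.64, Slc25a20 -1.57, Acadvl -2.58, Acadm -2.22, Hadha -2.31, Acaa2 -2.18, Eci1 -1.89, Etfb -2.24, Acad10 -0.91, Mlycd -1.49, Etfa -1.88, Echs1 -1.13, Hadhb -2.31, Etfdh -1.58, Esrra -1.13, Acadl -1.97, Acads -2.00, Acsl1 -1.48, Ppara -2.11, Pparg -0.45, Ppargc1a -1.44, Pdk4 -2.65. For KO against WT with rosiglitazone it turned in Cpt1b 2.71, Slc25a20 0.13, Acadvl 0.89, Hadha 0.91, Acaa2 0.89, Etfb 0.50, Acacb 0.094, Ppara 0.32, Hadhb 0.50, Ppargc1a 0.79, Esrra 0.98. For KO against WT on diet it turned in Cpt1b -1.32, Slc25a20 -1.47, Acadvl -2.24, Hadha -1.64, Acaa2 -1.63. For the interaction it turned in Cpt1b 4.02, Cpt2 2.14, Slc25a20 1.60, Acadvl 3.13, Acadm 2.30, Hadha 2.55, Acaa2 2.51, Eci1 2.14, Etfb 2.99. With the mature adipocyte marker covariate, the sign turned for rosiglitazone in KO in Slc25a20 -0.11, Acadm -0.074. For rosiglitazone in WT it turned in Cpt1a -0.23, Pparg -0.31. For KO against WT with rosiglitazone it turned in Cpt1a 0.96, Cpt1b 0.44, Hadha 0.27, Acaa2 0.63, Pparg 0.48, Oxct1 0.44, Hadhb 0.15, Acadl 0.25, Ppargc1a 0.68, Esrra 0.049. For KO against WT on diet it turned in Cpt1a 0.66, Cpt2 0.45, Acadm 1.12, Eci1 0.48, Etfb 0.87. On log2(TPM + 1), the sign turned for rosiglitazone in KO in Cpt1a -0.60, Cpt1b -0.096, Cpt2 -0.38, Slc25a20 -0.78, Acadvl -0.27, Acadm -0.59, Hadha -0.46, Acaa2 -0.35, Eci1 -0.57, Etfb -0.065. For the interaction it turned in Cpt1a -0.64. On log2(TPM + 0.1), the sign turned for rosiglitazone in KO in Cpt1a -0.62, Cpt1b -0.095, Cpt2 -0.39, Slc25a20 -0.81, Acadvl -0.28, Acadm -0.60, Hadha -0.46, Acaa2 -0.35, Eci1 -0.58, Etfb -0.065. For the interaction it turned in Cpt1a -0.67. By limma-voom, the sign turned for KO against WT on diet in Cpt1a 0.098. For the interaction it turned in Cpt1a -0.23. Without the muscle-rich libraries, the sign turned for rosiglitazone in KO in Slc25a20 -0.12, Acadm -0.02. For rosiglitazone in WT it turned in Cpt1a -0.062. With upper-quartile scaling, the sign turned for rosiglitazone in KO in Slc25a20 -0.028. With the muscle marker covariate, the sign turned for rosiglitazone in KO in Slc25a20 -0.085. With length offsets, the sign turned for KO against WT with rosiglitazone in Ppargc1a 0.017. Leaving out 1 library at a time turned the sign in some fits. The log2 fold change for rosiglitazone in KO ranged over Slc25a20 -0.37 to 0.56, Acadm -0.51 to 1.06, Cpt1a -0.03 to 0.57, Cpt1b -0.21 to 1.91, Cpt2 -0.11 to 1.60, Hadha -0.33 to 1.16, Acaa2 -0.28 to 1.43, Eci1 -0.17 to 0.85. For the interaction the range was Cpt1a -0.31 to 0.42. For KO against WT on diet the ranges were Slc25a20 -0.44 to 0.49, Acadvl -0.46 to 0.84, Hadha -0.26 to 1.23, Acaa2 -0.55 to 1.16, Cpt1a -0.59 to 0.14, Acadm -1.41 to 0.16, Etfb -1.03 to 0.26. For rosiglitazone in WT the range was Cpt1a -0.018 to 0.55.

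The fit with a replicate block called 5 members for rosiglitazone in WT, 6 for KO against WT with rosiglitazone and 0 in the other contrasts. Deviations of same-numbered libraries correlated at -0.419 to 0.608, so the numbers were not taken to pair the samples. Fitting only the groups compared gives no interaction. Depth ran from 13035346 to 40925952 reads, with at least 84 reads of each member in each library, and its effect was not tested. The limits are 2 or 3 libraries per group, muscle signal in 4 libraries and an adipocyte signal that follows genotype.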

Other observations

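Acaca, the enzyme that makes the CPT1 inhibitor malonyl-CoA in the cytosol, was picked out here after its values were seen. It averaged 157 ± 45.0 CPM in KO with rosiglitazone (SD, n = 3), 1312 ± 979 CPM in KO on diet (SD, n = 2), 736 ± 145 CPM in WT with rosiglitazone (SD, n = 3) and 326 ± 98.2 CPM in WT on diet (SD, n = 3). The log2 response to rosiglitazone in KO minus that in WT was -4.24 ± 0.64, which did not pass the threshold (edgeR quasi-likelihood test, adjusted p = 0.0510). Each WT library with rosiglitazone lay above each WT library on diet, where 13.4% of all genes were higher without overlap. Each KO library on diet lay above each KO library with rosiglitazone. The share of all genes lower in KO without overlap is not given here, and 10.5% were higher without overlap. Separation of this kind was thus found in many genes other than Acaca.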
